A study of Mus musculus with 8 samples.

Results

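The mitochondrial ribosomal proteins are the nuclear-encoded protein components of the ribosome inside mitochondria. They were taken here as the non-control probes whose gene name in the scanner files starts with Mrpl or Mrps followed by a number. This gave 76 genes of the 23977 tested, 47 of the large subunit (Mrpl) and 29 of the small subunit (Mrps). They were read by 106 probes, of which 105 passed the filter on dim probes, and all 76 genes could be tested. The probe that stands for each gene was well above background on 4 of 4 arrays in both groups.

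Liver RNA of bl6 mice, 12 weeks old and on chow, taken on day 6, was hybridised to 8 one-colour Agilent expression arrays. The samples fall into 2 groups of 4 by their treatment tag, AdLeXis and AdGFP. LeXis is a long non-coding RNA and GFP is green fluorescent protein; both were delivered by adenovirus, so every sample had received a virus. The free text on treatment in the labels instead names pblockITcontrol and pblockITshRaly vectors, and the tags, titles and series design were followed. The labels do not state that each sample is a separate animal, and the p-values here reflect sample-to-sample spread that could in part be technical. The comparison asks which liver transcripts differ when LeXis is supplied, and here it is described for the mitochondrial ribosome.

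The mitochondrial ribosome translates the few proteins encoded by mitochondrial DNA, all of them core subunits of the respiratory chain and of ATP synthase. Its ribosomal RNAs are transcribed inside the organelle, whereas all its proteins are made in the cytosol and imported. Many members descend from bacterial ribosomal proteins, and others exist only in mitochondria. Liver is rich in mitochondria, and subunit loss in people causes disorders of oxidative phosphorylation.

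Before scaling the AdLeXis arrays were brighter: the 75th percentile of the processed intensity lay between 381 and 448 there and between 220 and 297 on AdGFP arrays. The share of spots well above background was 62.6% to 67.7% in AdLeXis and 58.9% to 62.5% in AdGFP, and no spot was saturated. By their barcodes the 8 arrays were on 1 slide. The next number of the barcode was 1 for the AdGFP arrays and 2 for the AdLeXis arrays. Whatever that number marks cannot be told apart from group. Levels below are log2 signals after each array was scaled on its 75th percentile, and differences are AdLeXis minus AdGFP on that scale. A gene was called when its adjusted p was under 0.05 in limma, with Benjamini-Hochberg adjustment over all genes tested.

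The level of mitochondrial ribosomal protein transcripts differed little between the groups. Of the 76 genes, 7 were called higher in AdLeXis (9.21%), none was called lower (limma, 0 of 76), and 69 were not called. Over all genes tested, 8.74% were called higher, 8.79% lower and 17.5% in either direction, so the share of members called higher lay near that of genes at large. With no adjustment, 13 members were higher and 2 lower at a p under 0.05. The median difference over the 76 genes was 0.059, with quartiles of -0.08 and 0.18, beside a median of -0.0019 and quartiles of -0.21 and 0.21 over all genes. Single differences ran from -0.28 for Mrpl32 to 0.46 for Mrpl49, and no member differed by as much as 0.5 (0 of 76), a size that 17.9% of all genes passed. Among the 10084 genes whose signal lay within the range of the members, 10.9% were called higher and 10.4% lower, with a median of 0.013. Of these genes, 13.2% differed by 0.5 or more. When arrays were scaled on their medians, the median of the members was -0.024 and that of all genes was -0.085. The sign of the members' median thus depends on the scaling, while it lay 0.061 above that of all genes with either scaling.

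**Figure D1:**
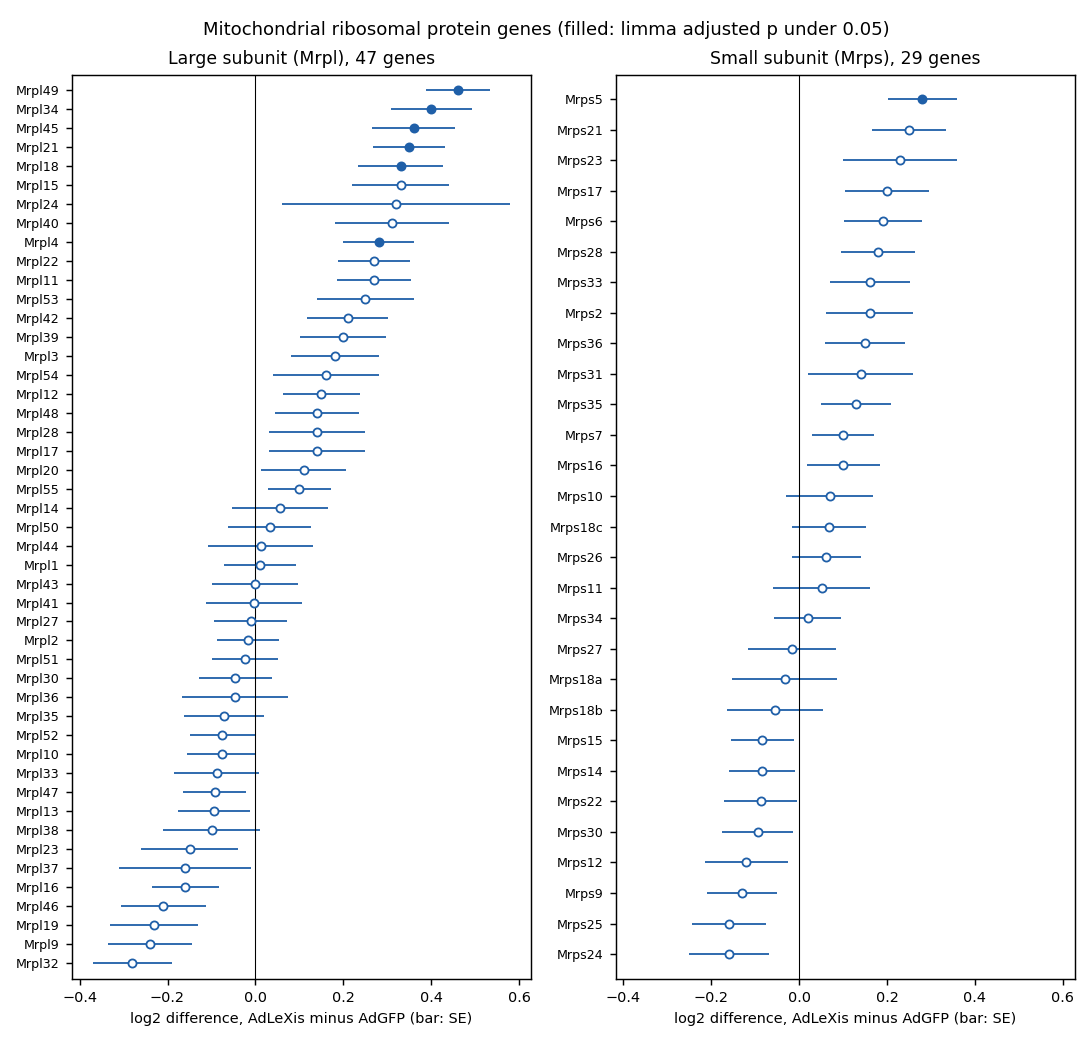
Log2 difference (AdLeXis minus AdGFP, n = 4 arrays per group) of each of the 76 mitochondrial ribosomal protein genes, large subunit left and small subunit right, with the standard error as a bar and called genes filled. The 6 filled points of the large subunit and the 1 of the small subunit all lie right of zero, and the differences run from -0.28 to 0.46.

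The number of members called changed when single arrays were left out, and so did the share of all genes called. The count of 7 became 1 without AdGFP replicate 1, without AdGFP replicate 4, without AdLeXis replicate 2 or without AdLeXis replicate 4. It was 3 without AdGFP replicate 2 or AdGFP replicate 3, and 2 without AdLeXis replicate 3, against 8 without AdLeXis replicate 1. Over all genes, the share called higher ran from 5.19% without AdLeXis replicate 4 to 8.7% without AdLeXis replicate 1, beside 8.74% with all arrays. The differences of the 7 genes called with all arrays ran from 0.24 to 0.49 over the 8 fits. Mrpl49 was called in all 8 of these fits. It was also called in each of the other 11 alternatives. There the count of higher members ranged from 1 with median scaling to 20 with a normexp background, settings that called 4.83% and 12.4% of all genes higher. Among these 11 was a fit on the series' value table, which repeats the same intensities and could not differ.

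Of the 7 called genes, 6 belong to the large subunit, which holds 47 of the 76 members. Mrpl49, a protein of the large subunit that bacteria lack, gave 11.36, 11.45, 11.39 and 11.45 on the AdGFP arrays and 11.79, 11.94, 11.85 and 11.92 on the AdLeXis arrays. The groups did not overlap, and the gap between them was wider than the range within either group. The difference was 0.46 (SE 0.073, 1.38-fold, limma adjusted p = 0.00518), between 11.41 ± 0.046 and 11.88 ± 0.067 (SD, n = 4 for each). A second kept probe for Mrpl49 gave 0.36 (SE 0.10, limma adjusted p = 0.0491 over all probes), against 0.0071 for the first on the same adjustment. The probes lie at chr19:6053882-6053941 and chr19:6054680-6054739 (mm9, reverse strand). Which part of the transcript they read was not looked up, since no annotation of that build was used here.

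Mrpl34, the counterpart of a small bacterial large-subunit protein, was at 11.63, 11.83, 11.73 and 11.66 in AdGFP and at 11.92, 12.20, 12.18 and 12.13 in AdLeXis. The groups did not overlap, with AdLeXis replicate 1 the nearest to the AdGFP arrays. The difference was 0.40 (SE 0.092, 1.32-fold, limma adjusted p = 0.0217), and the probe (chr8:73989526-73989585, mm9, forward strand) was spotted 10 times on each array.

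Mrpl45, which holds the ribosome at the inner mitochondrial membrane, was at 11.12, 11.16, 11.33 and 11.17 in AdGFP and at 11.38, 11.61, 11.55 and 11.69 in AdLeXis. Here AdGFP replicate 3 and AdLeXis replicate 1 lay 11.33 against 11.38, so the groups were only just apart. The difference was 0.36 (SE 0.094, 1.29-fold, limma adjusted p = 0.0321; probe at chr11:97190353-97190412, mm9, forward strand).

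Mrpl21, which has a bacterial counterpart, was at 12.61, 12.80, 12.66 and 12.67 in AdGFP and at 12.95, 13.08, 12.97 and 13.13 in AdLeXis. The highest AdGFP array was replicate 2, still below every AdLeXis array. The difference was 0.35 (SE 0.082, 1.27-fold, limma adjusted p = 0.0234; probe at chr19:3291006-3291065, mm9, forward strand). A further Mrpl21 probe was the only member probe that the filter on dim probes removed.

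**Figure D2:**
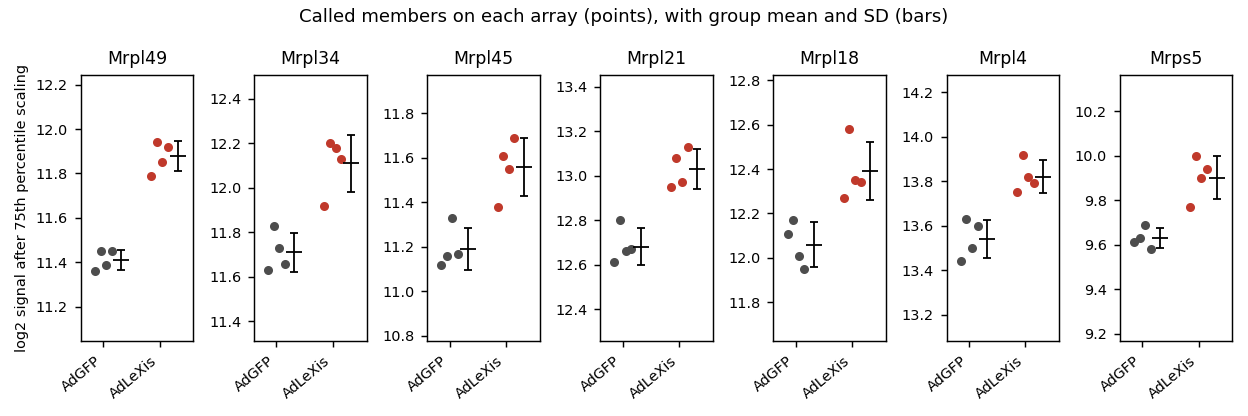
Log2 signal after 75th percentile scaling of the 7 called genes on each of the 8 arrays (points, replicates 1 to 4 from left to right), with the group mean and SD beside them; every panel spans 1.2 log2 units. In each panel the 4 AdLeXis points lie above the 4 AdGFP points, with the widest gap for Mrpl49.

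The other called members had adjusted p-values close to the threshold. Mrpl18, of the family that in bacteria binds the small 5S ribosomal RNA, was higher in AdLeXis, at 12.39 ± 0.13 against 12.06 ± 0.10 in AdGFP (SD, n = 4 for each), a difference of 0.33 (limma adjusted p = 0.0486; probe at chr17:13104338-13104397, mm9, reverse strand). Mrpl4, whose bacterial counterpart lines the exit tunnel, rose by 0.28, with 13.54 ± 0.085 in AdGFP arrays and 13.82 ± 0.075 in AdLeXis arrays (SD, n = 4 for each; limma adjusted p = 0.0464; probe at chr9:20813220-20813279, mm9, forward strand). It was not called in any of the 8 fits that left out an array (0 of 8). Adjusted over all probes instead of genes, the probes of Mrpl18, Mrpl4 and Mrps5 were not called (limma adjusted p = 0.0580, 0.0572 and 0.0550), nor was the dimmer probe of Mrpl4 at 0.23 (SE 0.087, limma adjusted p = 0.123).

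Mrps5 was the only called member of the small subunit; its bacterial counterpart sits near the decoding site. It was at 9.61, 9.63, 9.69 and 9.58 in AdGFP and at 9.77, 10.00, 9.90 and 9.94 in AdLeXis. The groups did not overlap, and AdLeXis replicate 1 was the lowest of its group. The difference was 0.28 (SE 0.079, 1.21-fold, limma adjusted p = 0.0445). The probe's coordinates, chr2:127426599-127427149 (mm9, forward strand), span more genome than its own length, so that it reads across at least 1 intron. Its sequence is shown because this is the single small-subunit call, in lower case with no part marked.
Mrps5 probe: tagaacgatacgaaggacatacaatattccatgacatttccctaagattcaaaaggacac

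No overlap between the groups was seen for 12 members with AdLeXis above AdGFP (15.8%) and for 2 with AdLeXis below (2.63%), beside 12.4% and 12.3% of all genes. In the signal range of the members, 16.9% and 15.5% of genes were so separated. The 12 were the 7 called genes with Mrpl11, Mrpl22, Mrps7, Mrps17 and Mrps21. Mrpl22, of a family that lines the exit tunnel in bacteria, narrowly missed the threshold at 0.27 (SE 0.082, limma adjusted p = 0.0520). Mrpl11, part of the stalk base that receives translation factors, gave 0.27 (SE 0.085, limma adjusted p = 0.0645). Mrps21 gave 0.25 (SE 0.085, limma adjusted p = 0.0810). Mrps7 and Mrps17 gave 0.10 and 0.20.

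The 2 separated members on the lower side were Mrpl32 and Mrpl16. Mrpl32, whose maturation by an inner-membrane protease is a step of ribosome assembly, was at 11.28, 11.32, 11.52 and 11.36 in AdGFP and at 10.94, 11.18, 11.14 and 11.11 in AdLeXis. The lowest AdGFP array, at 11.28, lay above the highest AdLeXis array, at 11.18. The difference of -0.28 (SE 0.090) was not called (limma adjusted p = 0.0682), though it was with quantile normalisation and with a trended robust prior. Mrpl16 gave -0.16 (limma adjusted p = 0.183), and the next lowest differences were those of Mrpl9 (-0.24), Mrpl19 (-0.23) and Mrpl46 (-0.21), each with overlapping groups.

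Large and small subunit were then set side by side. In the large subunit 6 of 47 genes were called higher (12.8%) and the median difference was 0.032. In the small subunit 1 of 29 was called (3.45%) and the median was 0.068. Beside these, 8.74% of all genes and 10.9% of genes in the signal range of the members were called higher. The median thus lay lower in the subunit with the more frequent calls, and the shares differ by few genes. No test was made of a score over the members. With median scaling the subunit medians were -0.051 and -0.015, beside -0.085 over all genes. The mean level of large-subunit genes minus that of small-subunit genes was 0.25, 0.30, 0.31 and 0.32 on the AdGFP arrays and 0.31, 0.32, 0.30 and 0.32 on the AdLeXis arrays. The groups overlapped, and AdGFP replicate 1 was the lowest array. The offset itself compares different probes and has no meaning as a level.

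The mean over the 47 large-subunit genes ran from 12.22 to 12.35 in AdGFP and from 12.28 to 12.42 in AdLeXis. Over the 29 small-subunit genes it ran from 11.91 to 12.04 and from 11.97 to 12.10. Both pairs of ranges overlapped.

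By name, a few proteins called Mrps are known from structures to sit in the large subunit. Mrps18a and Mrps30 are of this kind; counted with the large subunit they gave 6 called of 49 with a median of 0.012, and left 1 of 27 with a median of 0.070 in the small subunit. Mrps18a was at 12.18, 12.36, 12.41 and 12.01 in AdGFP and at 11.97, 12.32, 12.32 and 12.21 in AdLeXis (difference -0.033, limma adjusted p = 0.889). Its paralogue Mrps18b, a small-subunit protein, was at 14.01, 14.04, 14.32 and 13.95 in AdGFP and at 13.98, 14.19, 14.01 and 13.93 in AdLeXis (difference -0.055, limma adjusted p = 0.772). The third paralogue, Mrps18c, gave 12.26, 12.36, 12.40 and 12.21 against 12.32, 12.52, 12.36 and 12.31 (difference 0.068, limma adjusted p = 0.633). The groups overlapped for each of the 3 paralogues. Mrps30 was at 11.80, 12.00, 11.87 and 11.91 in AdGFP and at 11.71, 11.84, 11.89 and 11.77 in AdLeXis, again with overlap (difference -0.094, limma adjusted p = 0.472).

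Mrps36 carries the name of a ribosomal protein but is known as a subunit of the 2-oxoglutarate dehydrogenase complex. Its brighter probe gave 0.15 (SE 0.091, limma adjusted p = 0.298), while its dimmer probe gave 0.33 (SE 0.094) and was called over all probes (limma adjusted p = 0.0474). Without it the small subunit had 1 called gene of 28 and a median of 0.065.

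The members were also divided by descent. Those with a bacterial counterpart had 5 of 47 called higher (10.6%) and a median of 0.056; those found only in mitochondria had 2 of 29 (6.90%) and a median of 0.062. Both shares lay near the 8.74% of all genes called higher. The 11 mitochondria-specific members of the small subunit included no called gene (0 of 11), with a highest difference of 0.23, that of Mrps23. These counts are a description and carry no test.

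The brightest and dimmest member of each subunit were both uncalled. In the large subunit, Mrpl14 was the brightest at 14.80, 15.20, 15.17 and 15.04 in AdGFP and 15.14, 14.98, 15.08 and 15.23 in AdLeXis (difference 0.056, limma adjusted p = 0.771). Mrpl35 was the dimmest at 8.13, 8.27, 8.29 and 8.44 against 8.19, 8.33, 8.14 and 8.19 (difference -0.071, limma adjusted p = 0.642). In the small subunit, Mrps34 was the brightest at 14.10, 14.07, 14.11 and 14.21 against 14.25, 14.14, 14.09 and 14.08 (difference 0.019, limma adjusted p = 0.896). Mrps27, known also to bind RNA, was the dimmest at 9.33, 9.47, 9.57 and 9.41 against 9.35, 9.55, 9.57 and 9.24 (difference -0.017, limma adjusted p = 0.934). The groups overlapped for these 4 genes. The median within-group SD over the members was 0.108, beside 0.19 over all genes and 0.136 over the genes in the signal range of the members.

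Among the proteins of the stalk and its base, Mrpl11 gave 0.27, Mrpl12 gave 0.15 (limma adjusted p = 0.275) and Mrpl10 gave -0.077 (limma adjusted p = 0.552). None of these 3 passed the test. Around the exit tunnel, Mrpl4 and Mrpl22 gave nearly equal differences, 0.28 and 0.27, on either side of the threshold, and Mrpl23 gave -0.15 (limma adjusted p = 0.355). Mrpl24, of the same region, had the largest standard error of the members, 0.26, because AdGFP replicate 1 was at 12.08 while the other AdGFP arrays were at 13.13 to 13.35. Its difference of 0.32 (limma adjusted p = 0.454) was 0.021 without that array. In the small subunit, the decoding-site protein Mrps12 gave -0.12 (limma adjusted p = 0.440) beside the rise of Mrps5.

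Probes for the same gene differed in places. Of 26 members with at least 2 kept probes, 9 had probes of unlike sign, and none had probes called in opposite directions (0 of 26). The widest disagreement was in Mrpl9, where the bright probe gave -0.24 (SE 0.098) and a dim one 0.65 (SE 0.24), neither of them called over all probes. In Mrps2 the probes gave 0.16 and -0.20, both within 2 standard errors of zero. Mrpl15, whose brighter probe was not called among genes (0.33, limma adjusted p = 0.0707), had a dimmer probe at 0.39 (SE 0.10) that was called over all probes (limma adjusted p = 0.0387).

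Promoters bear on genes that might move together, so motif matches were counted in RefSeq windows of the start sites. The windows held 250 bases before and 50 bases after the start (300 in all, GRCm38.p6), both strands were searched, and 67 of the 76 members matched with 73 windows. The ETS-family motif CCGGAAG, which GABP also binds, was in 24 of 73 member windows (32.9%, 95% exact interval 22.3% to 44.9%) and in 8.86% of the 32851 windows of the table. This interval treats windows as independent, although some members have several windows and those of Mrpl2 overlap. The NRF1 core GCATGCGC was in 8 of 73 (11%) and in 2.71% of all windows. The YY1 motif AAGATGGCG was likewise in 8 of 73 (11%) and in 1.40% of all. None of the 3 motifs contains another.

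The ETS motif was found in both called and uncalled members. Of the 6 called members with a window, 3 held the ETS motif, and 21 of 67 windows of members not called did (31.3%); neither the NRF1 nor the YY1 motif was found in the called members (0 of 6 each, which allows up to 45.9%). The NRF1 motif was in 7 of 46 large-subunit and 1 of 27 small-subunit windows, and the ETS motif in 13 of 46 and 11 of 27. The 250 bases before the start are shown for the called members that held a motif, 5′ to 3′ on the strand of the gene, with the ETS motif in capitals. Mrpl34 is at chr8:71464676-71464925 (forward strand), Mrpl21 at chr19:3282792-3283041 (forward strand) and Mrpl18 at chr17:12916092-12916341 (reverse strand), all GRCm38.p6.
Mrpl34: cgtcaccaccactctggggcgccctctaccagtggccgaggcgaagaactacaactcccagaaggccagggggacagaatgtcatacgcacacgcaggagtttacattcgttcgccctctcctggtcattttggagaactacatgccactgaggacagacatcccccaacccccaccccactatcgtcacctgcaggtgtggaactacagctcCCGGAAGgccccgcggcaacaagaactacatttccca
Mrpl21: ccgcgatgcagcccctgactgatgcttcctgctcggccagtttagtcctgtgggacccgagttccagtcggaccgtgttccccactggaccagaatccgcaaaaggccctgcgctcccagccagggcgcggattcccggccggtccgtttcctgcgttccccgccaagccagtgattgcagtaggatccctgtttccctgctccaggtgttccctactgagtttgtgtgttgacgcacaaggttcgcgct
Mrpl18: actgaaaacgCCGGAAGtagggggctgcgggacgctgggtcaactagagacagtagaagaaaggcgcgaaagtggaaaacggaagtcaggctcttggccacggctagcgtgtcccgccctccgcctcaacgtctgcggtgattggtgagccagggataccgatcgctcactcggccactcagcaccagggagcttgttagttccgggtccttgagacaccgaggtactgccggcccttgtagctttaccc
In Mrpl21 the match lies in the 50 bases after the start, so no capitals appear. A match is a description of letters and does not show binding.

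The genes around the mitochondrial ribosome were read from the same fit, from lists of the pathway. The 7 mitoribosomal proteins that carry other names in the scanner files had a median difference of 0.021. None was called in limma (0 of 7, and 1 at an unadjusted p under 0.05). Mrpl57 and Mrpl58, so named only once the symbols were updated, gave 0.024 and 0.021. Ptcd3, a small-subunit protein, gave 0.38 (SE 0.12, limma adjusted p = 0.0603).

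Factors that assemble the ribosome or modify its RNA had 4 of 28 called higher (14.3%, beside 8.74% of all genes), none lower, and a median of 0.087. Mettl15, which methylates the small-subunit ribosomal RNA, rose by 0.96, from 7.85 ± 0.14 in AdGFP to 8.81 ± 0.23 in AdLeXis (SD, n = 4 for each; limma adjusted p = 0.00313). Tfb1m, a dimethyltransferase of the same RNA, rose by 0.51 (SE 0.095, limma adjusted p = 0.00935). Mterf4, which recruits a methyltransferase during assembly, rose by 0.41 and Ybey, an endonuclease of small-subunit maturation, by 0.39 (limma adjusted p = 0.0398 and 0.0220). Under other scalings or a normexp background, 2 to 9 of the 28 were called higher. Without AdGFP replicate 1, AdGFP replicate 2, AdGFP replicate 3 or AdLeXis replicate 2, the count was 2.

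In mitochondrial DNA replication and transcription 5 of 11 genes rose (45.5%, beside 8.74% of all genes), none fell, and the median was 0.33. Polg2, the accessory subunit of the DNA polymerase, rose by 0.58 (SE 0.11, limma adjusted p = 0.00882). Mterf1a, a terminator of transcription, rose by 0.56 (SE 0.10, limma adjusted p = 0.00956). Tfam, which packages mitochondrial DNA and starts transcription, rose by 0.47, with 11.41 ± 0.086 in AdGFP arrays and 11.88 ± 0.14 in AdLeXis arrays (SD, n = 4 for each; limma adjusted p = 0.0122), and Tfb2m, its partner at the promoter, rose by 0.33 (limma adjusted p = 0.0475). The fifth was Polrmt, the RNA polymerase, at 0.45 (limma adjusted p = 0.0490). The count was 2 to 5 under other scalings or a normexp background. Dropping an array left 3, except for 4 on dropping AdGFP replicate 2 and 5 on dropping AdLeXis replicate 1.

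The factors of translation itself came next. Of 15 translation factors, Mtrf1l, a release factor, rose by 0.35 (limma adjusted p = 0.0208) and Slirp, which stabilises mitochondrial messenger RNAs, fell by 0.30 (limma adjusted p = 0.0432), with a median of 0.036 over the list. That was 6.67% of the list in either direction, beside 8.74% of all genes called higher and 8.79% lower. Of 22 genes for charging mitochondrial transfer RNAs, Iars2 alone was called (4.55% of the list), at 0.37 (limma adjusted p = 0.0268, list median 0.049). Among 9 regulators of mitochondrial biogenesis, Esrra, an orphan nuclear receptor, rose by 0.34 (limma adjusted p = 0.0279), while Gabpa, the DNA-binding part of GABP, gave 0.31 (limma adjusted p = 0.0651). The call of Esrra made up 11.1% of that list. Yy1 and Nrf1 gave 0.20 and 0.21, and Ppargc1a gave -0.092, none of them called. The 12 import and chaperone genes had no call in limma (0 of 12; unadjusted, 3 higher and 1 lower) and a median of 0.12, with 0.00095 for Hspd1 and 0.15 for Vdac1. Under other scalings or a normexp background, 0 to 4 translation factors and 0 to 5 charging genes were called higher. For regulators and import genes the counts were 0 to 1 and 0 to 5. The first 3 of these lists had no gene called higher (limma) once AdLeXis replicate 2, or AdLeXis replicate 4, was dropped. The same held for the factors without AdGFP replicates 2 or 4, for the charging genes without AdGFP replicates 1, 2 or 3, and for the regulators without AdGFP replicates 1, 3 or 4. Of the fits without an array, the one without AdGFP replicate 4 alone had a factor called lower.

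The transcripts that the mitochondrial ribosome translates were read as well. Of the 13 mitochondrially encoded messenger RNAs, 6 fell (46.2%, beside 8.79% of all genes) and none rose, with a median of -0.22. COX2, ND2, COX1 and CYTB, which encode respiratory-chain core subunits, fell by 0.56, 0.50, 0.49 and 0.31, and COX3 and ND6 by 0.32 and 0.87. The limma adjusted p was 0.00506 for COX2, 0.00613 for ND2 and 0.0271 for ND6. ND6, the dimmest of the 13, had mean levels of 7.16 in AdGFP and 6.29 in AdLeXis. The files place the COX2 and COX3 probes on chromosome 1, so nuclear copies of these sequences may share their signal. The other 7 genes ran from -0.22 to 0.21. Under other scalings or a normexp background the list median ran from -0.30 to 0.036, with 1 to 6 called lower and 0 to 2 called higher. The direction thus depended on the processing. Without AdGFP replicate 1, AdGFP replicate 3, AdLeXis replicate 2 or AdLeXis replicate 4, the count called lower was 3. Of the 13, 7 had a log2 signal of 16 or more, among them 5 of the 6 called lower. Of all 400 genes with a log2 signal of 16 or more, 39.2% were called lower and 0.75% higher. No member was that bright (0 of 76), and the part of signal in this fall was not tested.

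**Figure D3:**
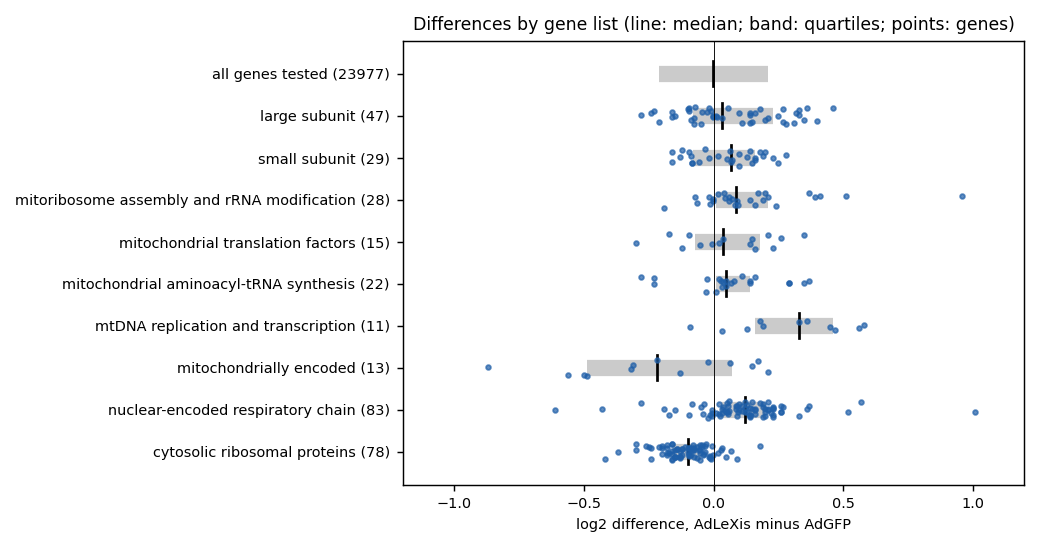
Log2 difference (AdLeXis minus AdGFP) of the genes in each list (points), with the list's median as a line and its quartiles as a band, and the number of genes tested in brackets; the upper band is that of all genes tested, and 2 respiratory-chain genes beyond the axis are not drawn. The large and small subunit straddle zero with medians of 0.032 and 0.068, while mitochondrial DNA replication and transcription lies higher at 0.33 and the mitochondrially encoded genes lower at -0.22.

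Compared with the cytosolic ribosome and the respiratory chain, the mitochondrial ribosome had a median in between. None of 78 cytosolic ribosomal protein genes was called higher and 5 were called lower (6.41%, beside 8.79% of all genes), with a median of -0.098. Rpl13 and Rps14, of the large and small subunit, fell by 0.42 and 0.37 (limma adjusted p = 0.00748 and 0.0122). That median ran from -0.18 to 0.049 under other scalings or a normexp background, so its sign is not fixed. All 5 genes called lower had a log2 signal of 16 or more, where 39.2% of all genes were called lower, and 2 or 3 were called lower when an array was left out. Of 83 nuclear-encoded respiratory-chain genes, 9 rose (10.8%, beside 8.74% of all genes) and 2 fell (2.41%, beside 8.79%), with a median of 0.12. The share called higher thus lay near that of genes at large. Ndufv1, the subunit of complex I that takes electrons from NADH, rose by 0.57 (SE 0.081, limma adjusted p = 0.00340). Cox6b2, an isoform best known from testis, rose by 4.35 (SE 0.41, limma adjusted p = 0.000744). The other gene beyond the axis of the plot of lists was Cox8b at 1.78. Cox8b was dim, with mean levels of 1.83 in AdGFP and 3.61 in AdLeXis, where the lowest mean of any tested gene was 2.06 over all arrays. The count of respiratory-chain genes called higher was 4 to 31 under other scalings or a normexp background, and 5 without AdLeXis replicate 4. The difference between the lists was not tested.

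Some lists of cell-type markers differed between the groups. Over all genes, 8.74% were called higher and 8.79% lower, the shares to set beside the counts below. The 12 hepatocyte markers were all measured, with 6 called lower and a median of -0.27. Under other scalings or a normexp background the median ran from -0.35 to -0.011, with 1 to 6 called lower. Of the 6 called with 75th percentile scaling, 5 had a log2 signal of 16 or more, where 39.2% of all genes were called lower. Alb was at 18.48 ± 0.14 in AdLeXis against 19.10 ± 0.069 in AdGFP (SD, n = 4 for each). All 10 T and natural killer cell markers were called lower, with a median of -1.1, and their mean level ran from 9.38 to 9.51 in AdGFP and from 8.13 to 8.52 in AdLeXis. Of 10 Kupffer cell and macrophage markers 3 were called lower, while Vsig4 at 0.50 (limma adjusted p = 0.0935) and Clec4f at 0.095 lay above zero. Of 4 proliferation markers 3 were called higher, among them Ccnb1 at 1.48. The Kupffer count was 5 once AdGFP replicate 3 was dropped, and 1 on dropping AdGFP replicates 1 or 2 or AdLeXis replicate 2. The proliferation count was 1 without AdGFP replicate 1, AdGFP replicate 3, AdLeXis replicate 1 or AdLeXis replicate 4. Of the stellate cell markers 2 of 7 and of the bile duct markers 1 of 4 were called lower (0 to 2 and 0 to 1 when an array was left out), and no B cell or endothelial marker was called in limma (0 of 4 and 0 of 7, and 0 of each at an unadjusted p under 0.05). In bulk tissue, fewer cells of a type and less RNA per cell cannot be told apart. The part of these markers in the differences of the 7 called members was not tested.

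**Figure D4:**
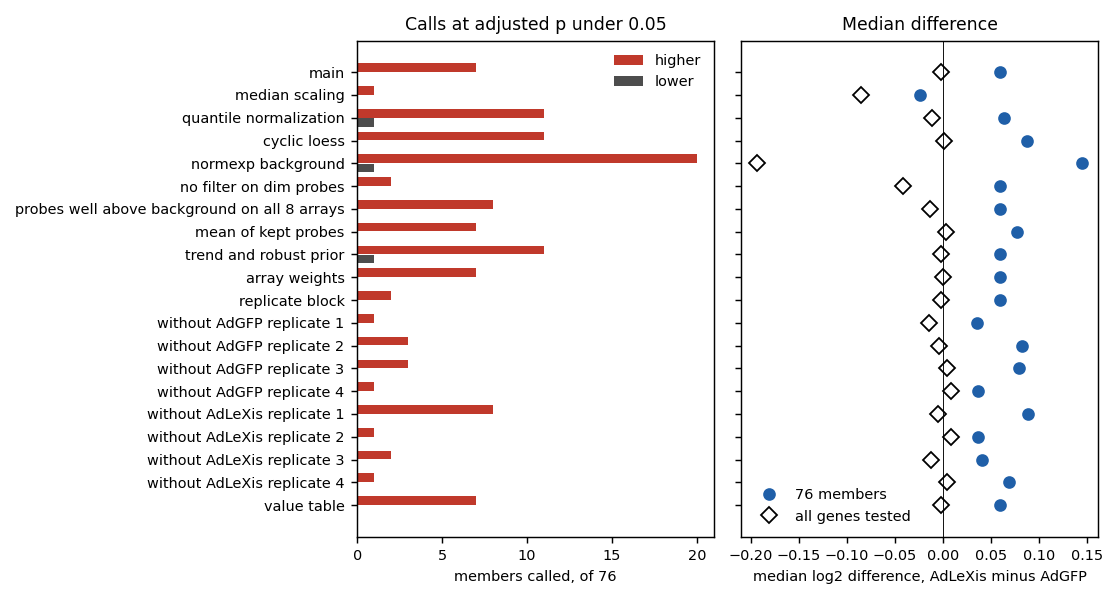
Left, the number of the 76 members called higher or lower under each way of processing the arrays; right, the median log2 difference (AdLeXis minus AdGFP) of the members and of all genes tested. The count of higher members runs from 1 to 20, and the member median is below zero with median scaling only (-0.024), where the median of all genes is -0.085.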

How the data were processed

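RNA of 8 mouse liver samples was measured on 1-colour Agilent arrays. Per the file headers, the deposited linear spot intensity came from Agilent Feature Extraction (11.5.1.1), whose processed signal the authors' files give after background subtraction within each array, with no scaling across arrays. The series' value table repeats these intensities. Probe positions are mm9, per the file headers. Here log2 of the processed intensity minus each array's 75th percentile was used. Control spots and the 127 to 256 outlier spots of an array were dropped, and repeat spots averaged. The filter on dim probes required a signal well above background on 4 or more arrays and a measurement on 2 or more of each group (34428 probes). The brightest kept probe stood for a gene (23977 genes). Symbols were updated through a RefSeq table (GRCm38.p6; 27656 probes by accession, 3401 by symbol). Groups followed the treatment tag, with replicate numbers from the titles. They were compared with limma 3.58.1 in R 4.3.3 (lmFit and eBayes), which was tested on simulated data.

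The members and lists were chosen with earlier results of these data known. Arrays are shown for the called members of largest difference, the brightest and dimmest member of each subunit, the Mrps18 paralogues and Mrps30. Up to 4 genes of smallest p are named for other lists, or their brightest. Other members, Mrpl24, Polrmt, COX3, ND6, CYTB, Ptcd3, the uncalled regulators, Cox6b2, Cox8b and the Mrpl18 promoter were named after their values were seen. The number of arrays limits precision. Alternatives covered scaling, background correction, filter, probe choice, prior, array weights, a replicate block and leaving out each array. A further one used the series' value table, which repeats the same intensities and could not change a call.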

Additional observations from a re-analysis of the deposited data

Results flagged for a closer look

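In a group of 4 arrays, a value stood far from the other 3 where its gap to the nearest, as a share of the group's range, was over Dixon's 95% critical value. Among the 152 groups of 4 (76 members in both groups) this held for 10; chance gives about 1 in 20 groups. Of the 10, 3 were on AdGFP replicate 4, 2 on AdGFP replicate 2 and 2 on AdLeXis replicate 3.

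On AdGFP replicate 4, Mrpl37 was at 9.55 (others 9.81 to 9.85), Mrpl40 at 11.63 (others 12.06 to 12.11) and Mrps17 at 12.34 (others 12.60 to 12.63). On AdGFP replicate 2, Mrps9 was at 10.35 (others 10.46 to 10.48) and Mrps16 at 12.68 (others 12.52 to 12.54). On AdGFP replicate 1, Mrpl38 was at 11.85 (others 12.02 to 12.05), and on AdGFP replicate 3, Mrpl53 was at 13.58 (others 13.21 to 13.26). On AdLeXis replicate 3, Mrpl54 was at 12.51 (others 12.65 to 12.68), and Mrpl22 was at 13.39 with the others at 13.40. On AdLeXis replicate 2, Mrpl20 was at 14.29 (others 14.08 to 14.11). None of the 10 genes was called.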

How the results depend on the processing

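The share of all genes called higher (8.74%) was 4.83% with median scaling, 8.68% with quantile normalisation and 9.13% with cyclic loess. It was 10.6% with a trended robust prior, 12.4% with a normexp background, 4.01% with no filter on dim probes, and 5.19% to 8.7% without an array. Members called higher (7) numbered 1 with median scaling, 11 with quantile normalisation, cyclic loess or a trended robust prior, 20 with a normexp background, 2 with no filter on dim probes, and 1 to 8 when an array was left out. Of these, large-subunit genes (6) numbered 1 with median scaling, 17 with normexp, 2 without the filter and 1 to 6 without an array. Small-subunit genes (1) numbered 0 with median scaling or no filter, 2 with quantile, loess or the robust prior, 3 with normexp, and 0 to 2 without an array. One member, of the large subunit, was called lower (1) with quantile normalisation and the robust prior (Mrpl32) and with normexp (Mrpl9). The medians of members, large and small subunit were -0.024, -0.051 and -0.015 with median scaling and 0.144, 0.143 and 0.169 with normexp; the large-subunit median was 0.099 with the mean of kept probes. Normexp moved the median of all genes to -0.193, leaving the members 0.336 above it. Mrpl10 and Mrpl51 reversed under normexp, to 0.31 (limma adjusted p = 0.0333) and 0.34 (limma adjusted p = 0.0141). Calls over all genes split into 1157 higher and 2683 lower with median scaling (30.1% higher, against 49.9%) and 2979 and 9671 with normexp (23.5%). Deviations from the group mean correlated at 0.00168 to 0.117 between same-numbered samples. By these deviations, 1 of the 4 AdGFP arrays correlated best with its own number. This does not show that the numbers pair the samples, and it cannot exclude a pairing. With the replicate block, 2 members were called higher (Mrpl34 and Mrpl49), 2 in the large and 0 in the small subunit. Of 646 single-gene values over 34 genes and 19 alternatives, 555 stayed on their side of the threshold without reversing a call, 24 of them with the other sign but called in neither setting; 57 lost the call, 32 gained one and 2 reversed. Mrpl49 kept its call in 19 of 19, at 0.36 to 0.49, Mrpl34 in 13, Mrpl21 in 11, Mrpl45 in 10, Mrpl18 in 9, Mrps5 in 8 and Mrpl4 in 6. The cause of each loss was not tested. These counts, and the 555, include the fit on the series' value table. It repeats the same intensities, so every call was kept there in advance. With shorter motifs, CGGAA was in 76.7% of member windows and 29.9% of all, and GCGCA in 61.6% and 30.4%.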
